A study of Mus musculus with 9 samples.

Results

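Mast cells and basophils are the tissue and blood effector cells of IgE-driven responses, and 9 genes of these lineages were read in LSK cells, the stem and progenitor fraction of mouse bone marrow that is negative for lineage markers and positive for Sca1 and cKit. The genes were Cpa3, Gzmb, Mcpt8, Ms4a2, Fcer1a, Fcer1g, Hdc, Prss34 and Mitf, found by symbol among the 37882 genes of the deposited RPKM table. They were chosen by name with earlier results of all 3 groups known, so their calls below describe the fit across all genes and are no independent evidence. RNA sequencing covered 9 mice, 3 to a group and 1 library to a mouse. All had a B6/129 background, were 6 to 8 weeks old and drank 2 mg/ml doxycycline with 10 mg/ml sucrose. The K36M mice carried rtTA, the doxycycline-dependent activator, in Rosa26 and H3.3 with lysine 36 replaced by methionine in Col1a1. The K9M mice carried the same rtTA and H3.3 with lysine 9 replaced by methionine in Col1a1. The rtTA control mice carried rtTA in Rosa26 alone, so every group held rtTA and no group held an unmutated H3.3 transgene. The sources used here name neither the length of the doxycycline treatment nor the transgenes' promoter.

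Mast cells and basophils both bind IgE through a surface receptor built of an alpha chain that holds the antibody, a beta chain that amplifies the signal and a gamma chain that carries it into the cell. Crosslinking of the receptor releases stored histamine and granule proteases. Both lineages arise from marrow progenitors that express GATA2, and mast cells also depend on the receptor Kit and on the factor MITF. Mast cells are themselves positive for cKit, so a sort for cKit does not remove them. In bulk RNA, fewer cells of a type and less RNA per cell cannot be told apart.

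The genes did not move as a block. Cpa3, the mast cell carboxypeptidase, averaged 22.7 ± 1.77 RPKM in K36M, 43.3 ± 4.02 RPKM in K9M and 33.99 ± 7.38 RPKM in rtTA (SD, n = 3 each), and was the single gene of the 9 called in any comparison, lower in K36M against K9M. Prss34 and Gzmb, both granule serine proteases, were also lower in every K36M library than in every K9M library. Mcpt8, the basophil protease, and Hdc, the histamine-forming enzyme, had their highest values in K36M libraries and were not called. Of the 9 genes, 5 reached 1 RPKM in at least 3 libraries and entered the test (Cpa3, Mcpt8, Ms4a2, Hdc and Fcer1g). The other 4 (Gzmb, Fcer1a, Prss34 and Mitf) lay under that filter and are given as values.

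**Figure D1:**
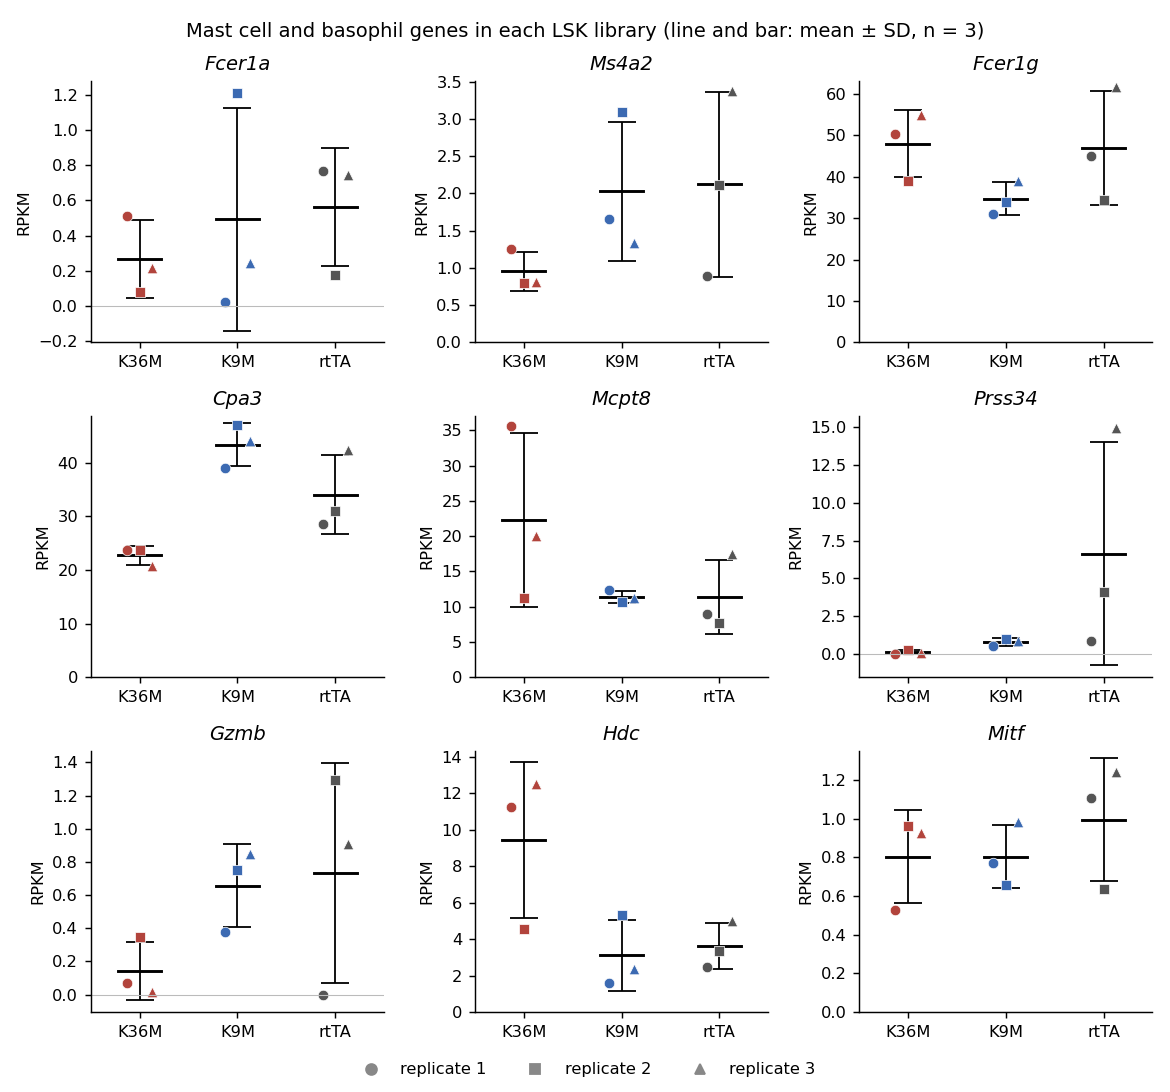
RPKM of each gene (vertical axes, each panel on its own linear scale) in the K36M, K9M and rtTA groups, with 1 marker per mouse and the mean ± SD of 3 libraries. Cpa3 lies between 20.7 and 23.8 RPKM in K36M and between 39.0 and 46.9 RPKM in K9M, while Prss34 spreads from 0.845 to 14.95 RPKM within rtTA alone.

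Values were compared as log2(RPKM + 0.5), a scale that understates changes of low genes, in limma fitted to all 9 libraries, and a gene was called at an adjusted p under 0.05 over 12926 tested genes. In K36M against rtTA limma called 0 of the 5 tested genes, against a background of 1.50% of all tested genes (194 genes, and 301 with the replicate number as a block). Unadjusted p lay under 0.05 for 2 of the 5, Cpa3 and Hdc, against 19.1% of all tested genes. In K9M against rtTA limma called 0 of 5 (background 0.116%), with an unadjusted p under 0.05 for Cpa3 alone (background 7.11%). In K36M against K9M it called 1 of 5, Cpa3 (background 2.52%), with Hdc also under 0.05 unadjusted (background 18.8%). K36M and K9M did not overlap for 4 of the 9 genes, which were Cpa3, Ms4a2, Prss34 and Gzmb, each lower in K36M. Of these, Cpa3 and Ms4a2 were tested, 2 of the 5 tested genes, and among all tested genes such a gap with K36M lower was found for 13.4%. K36M and rtTA did not overlap for Cpa3 and Prss34, with K36M lower. Of the 5 tested genes this was 1, Cpa3, against 10.6% of all tested genes. K9M and rtTA overlapped for each of the 9. Of the 5 tested genes, 0 thus had no overlap there, against 12.5% of all tested genes, and with 5 genes 0 cannot be told from that share. The K36M and K9M comparisons with rtTA share the same 3 control libraries.

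**Figure D2:**
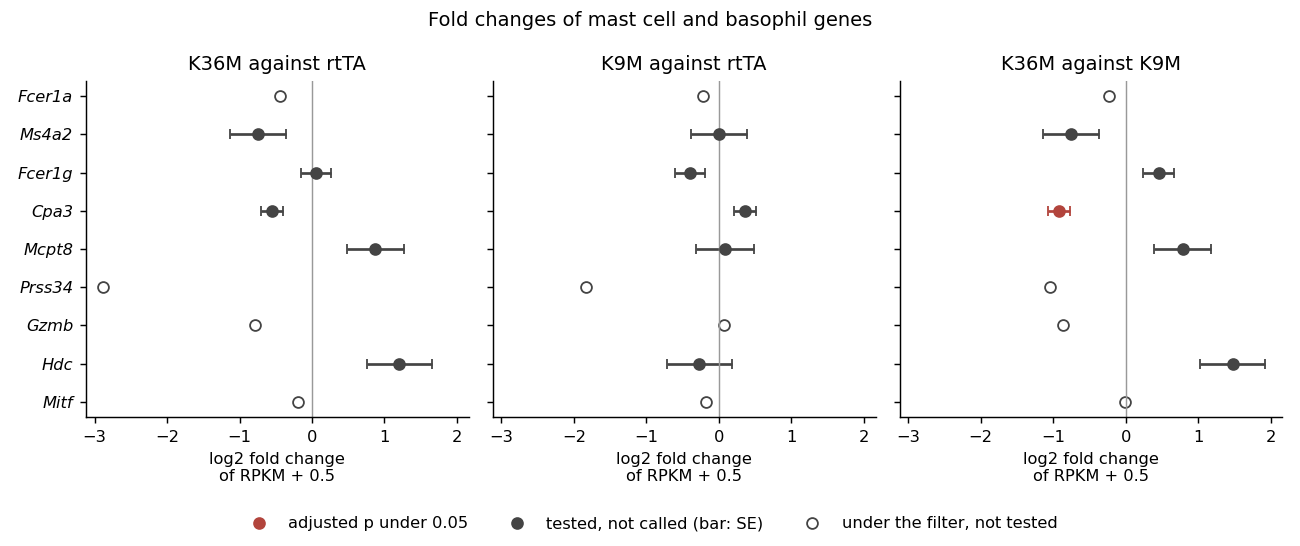
Log2 fold change of RPKM + 0.5 (horizontal axis) of each gene in the 3 comparisons, with the limma SE for the 5 tested genes and open circles for the 4 genes under the filter. Cpa3 in K36M against K9M, at -0.92, is the single point past the threshold, and Hdc, at 1.48 there, has an SE of 0.448.

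The promoters of 6 genes are shown because these genes stood on opposite sides of that pattern. Cpa3, Ms4a2, Prss34 and Gzmb were lower in each K36M library than in each K9M library, while Hdc and Mcpt8 were highest in K36M libraries. Each window runs from 250 bases before to 50 after the RefSeq start on GRCm38.p6, 5′ to 3′ on the gene's strand. Capitals mark matches, on either strand, to GATAA (GATA factors), CATGTG or CACGTG (MITF and its relatives), TGTGGT (RUNX factors) and TTGCNNAA (C/EBP factors). No matches to different words overlap in the 6 windows.
Cpa3, chr3:20242132-20242431, minus strand: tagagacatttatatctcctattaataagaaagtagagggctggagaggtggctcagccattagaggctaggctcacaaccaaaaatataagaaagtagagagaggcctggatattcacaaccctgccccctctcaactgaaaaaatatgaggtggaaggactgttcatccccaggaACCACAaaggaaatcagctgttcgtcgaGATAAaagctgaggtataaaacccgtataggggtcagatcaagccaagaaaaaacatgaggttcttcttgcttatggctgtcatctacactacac
Ms4a2, chr19:11623670-11623969, minus strand: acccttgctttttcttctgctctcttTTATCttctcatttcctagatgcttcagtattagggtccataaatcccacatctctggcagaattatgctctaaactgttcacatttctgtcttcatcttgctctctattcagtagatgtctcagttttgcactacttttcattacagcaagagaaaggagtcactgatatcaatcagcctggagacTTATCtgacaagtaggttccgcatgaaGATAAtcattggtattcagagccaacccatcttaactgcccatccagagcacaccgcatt
Prss34, chr17:25298144-25298443, plus strand: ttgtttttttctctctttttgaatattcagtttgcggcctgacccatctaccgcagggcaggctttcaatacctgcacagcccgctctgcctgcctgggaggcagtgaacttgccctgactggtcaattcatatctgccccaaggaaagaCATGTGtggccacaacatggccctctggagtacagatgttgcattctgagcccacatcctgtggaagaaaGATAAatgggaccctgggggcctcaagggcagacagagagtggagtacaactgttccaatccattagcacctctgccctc
Gzmb, chr14:56262285-56262584, minus strand: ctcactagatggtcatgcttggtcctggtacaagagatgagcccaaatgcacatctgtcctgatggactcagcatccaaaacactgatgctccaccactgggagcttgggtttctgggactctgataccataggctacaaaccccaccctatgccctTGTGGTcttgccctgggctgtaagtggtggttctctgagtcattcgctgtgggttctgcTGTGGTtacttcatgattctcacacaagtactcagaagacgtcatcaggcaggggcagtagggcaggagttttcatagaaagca
Hdc, chr2:126618629-126618928, minus strand: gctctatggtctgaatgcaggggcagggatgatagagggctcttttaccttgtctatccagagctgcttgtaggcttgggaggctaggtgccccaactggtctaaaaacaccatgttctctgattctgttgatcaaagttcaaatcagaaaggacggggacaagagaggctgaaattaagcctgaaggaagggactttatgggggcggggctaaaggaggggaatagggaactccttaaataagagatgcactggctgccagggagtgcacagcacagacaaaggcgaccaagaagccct
Mcpt8, chr14:56085148-56085447, minus strand: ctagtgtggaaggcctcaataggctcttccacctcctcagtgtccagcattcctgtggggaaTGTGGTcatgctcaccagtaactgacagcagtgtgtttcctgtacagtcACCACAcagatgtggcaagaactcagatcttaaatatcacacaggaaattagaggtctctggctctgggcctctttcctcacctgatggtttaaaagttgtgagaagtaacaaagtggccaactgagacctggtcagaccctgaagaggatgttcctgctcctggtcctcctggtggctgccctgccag
The word GATAA or its complement stood once in the Cpa3 window, 3 times in that of Ms4a2 and once in that of Prss34, and was not in the windows of Gzmb, Hdc and Mcpt8. It was therefore in 3 of the 4 windows of genes lower in K36M. That split was drawn from these same values, so a link between the word and direction was not tested. Of all 9 genes, 5 had the word GATAA or its complement in a window, among them Fcer1a and Mitf, whose groups overlapped. Of 32851 promoter windows in the RefSeq table, 25.4% held it. CATGTG stood in the Prss34 window beside 14.2% of all windows, and TGTGGT once in Cpa3 and 2 times each in Gzmb and Mcpt8 beside 16.8% of all windows. CACGTG (7.2% of all windows) and TTGCNNAA (10.8%) were in none of the 6. These matches describe letters in a short window and are not evidence of binding.

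Among the receptor chains, Ms4a2 encodes the beta chain, whose use is restricted to mast cells and basophils. Ms4a2 stood at 1.26, 0.799 and 0.808 RPKM in K36M replicates 1 to 3, at 1.65, 3.09 and 1.34 RPKM in K9M replicates 1 to 3, and at 0.889, 2.11 and 3.38 RPKM in rtTA replicates 1 to 3. Every K36M library lay under every K9M library, while rtTA replicate 1 lay within the K36M range. The gap was narrow, from 1.26 RPKM in K36M replicate 1 (about 143 reads) to 1.34 RPKM in K9M replicate 3 (about 60 reads). The log2 fold change was -0.74 (SE 0.387) in K36M against rtTA, 0.0051 (SE 0.387) in K9M against rtTA and -0.75 (SE 0.387) in K36M against K9M, with limma adjusted p of 0.335, 0.998 and 0.346. Spread within the rtTA group, 3.80 times from lowest to highest, exceeded the difference between the group means.

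Fcer1a encodes the IgE-binding alpha chain and was close to the detection limit. Its values were 0.509, 0.0795 and 0.214 RPKM in K36M replicates 1 to 3, 0.019996, 1.21 and 0.246 RPKM in K9M replicates 1 to 3, and 0.766, 0.174 and 0.744 RPKM in rtTA replicates 1 to 3. With GENCODE exon lengths these values rest on about 20, 3 and 11 reads in K36M, 1, 34 and 4 reads in K9M, and 13, 6 and 19 reads in rtTA. The groups overlapped, and K9M replicate 2 was the highest library of the 9.

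Fcer1g encodes the gamma chain, which neutrophils, monocytes and NK cells also use for their IgG and activating receptors. It had the highest mean of the 9 genes in K36M and rtTA, and stood under Cpa3 in K9M. Its values were 50.2, 39.0 and 54.9 RPKM in K36M replicates 1 to 3, 31.1, 33.9 and 39.0 RPKM in K9M replicates 1 to 3, and 45.1, 34.3 and 61.6 RPKM in rtTA replicates 1 to 3. The K9M libraries reached only into the lower end of the other groups. Its log2 fold change was 0.06 (SE 0.210, limma adjusted p = 0.916) in K36M against rtTA, -0.40 (SE 0.210, limma adjusted p = 0.744) in K9M against rtTA and 0.46 (SE 0.210, limma adjusted p = 0.287) in K36M against K9M. Beside it, the summed level of 18 monocyte and macrophage genes ran from 410 to 894 RPKM in K36M, from 306 to 349 RPKM in K9M and from 320 to 997 RPKM in rtTA, and their part in the Fcer1g values was not tested. The genes whose pattern over the 9 libraries was most like that of Fcer1g were Xdh (r = 0.967), Itgam, the Mac1 antigen of the lineage stain (r = 0.960), and Myo1f (r = 0.946).

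Among the proteases, Cpa3 encodes carboxypeptidase A3, a mast cell granule enzyme whose transcript is also found in early mouse progenitors. It lies on chromosome 3 (20215620 to 20242181, mm10, minus strand). Cpa3 stood at 23.7, 23.8 and 20.7 RPKM in K36M replicates 1 to 3, at 39.0, 46.9 and 44.1 RPKM in K9M replicates 1 to 3, and at 28.5, 31.0 and 42.4 RPKM in rtTA replicates 1 to 3. Every K36M library lay under every library of the other groups, and rtTA replicate 3 reached into the K9M range. Its log2 fold change was -0.55 (SE 0.151, limma adjusted p = 0.109) in K36M against rtTA, 0.36 (SE 0.151, limma adjusted p = 0.686) in K9M against rtTA and -0.92 (SE 0.151, limma adjusted p = 0.0219) in K36M against K9M. That call was lost on leaving out K36M replicate 1 or 3 (limma adjusted p = 0.0855 and 0.108), on leaving out K9M replicate 1, 2 or 3 (0.0661, 0.0749 and 0.0901) and with no filter (0.0511). Its adjusted p had a range of 0.0116 to 0.108 over 19 alternatives, while the log2 fold change stayed between -0.99 and -0.85. Kit, the growth receptor of mast cells and a sort marker, stood at 66.2 ± 11.3 RPKM in K36M, 86.4 ± 5.45 RPKM in K9M and 95.4 ± 7.17 RPKM in rtTA (SD, n = 3 each) and was not called (K36M against rtTA -0.54, limma adjusted p = 0.0918).

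Mcpt8 encodes a granule protease restricted in mice to basophils and their progenitors. It stood at 35.6, 11.2 and 19.97 RPKM in K36M replicates 1 to 3, at 12.4, 10.7 and 11.2 RPKM in K9M replicates 1 to 3, and at 8.99, 7.68 and 17.4 RPKM in rtTA replicates 1 to 3. K36M replicates 1 and 3 were the 2 highest libraries, and K36M replicate 2 lay within both other groups. The log2 fold change was 0.88 (SE 0.397, limma adjusted p = 0.272) in K36M against rtTA, 0.09 (SE 0.397, limma adjusted p = 0.980) in K9M against rtTA and 0.79 (SE 0.397, limma adjusted p = 0.334) in K36M against K9M.

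Prss34 encodes a second basophil protease, which mast cells can also make. It stood at 0.0205, 0.290 and 0.0819 RPKM in K36M replicates 1 to 3, at 0.523, 0.993 and 0.883 RPKM in K9M replicates 1 to 3, and at 0.845, 4.10 and 14.95 RPKM in rtTA replicates 1 to 3. These values rest on about 1, 13 and 5 reads in K36M, 31, 34 and 17 reads in K9M, and 17, 169 and 455 reads in rtTA. K36M was under both other groups with no overlap, and rtTA spread 17.7 times from lowest to highest, so its mean rests on replicate 3. On the log2 scale the difference was -2.88 in K36M against rtTA and -2.002 without rtTA replicate 3, and it was -1.83 in K9M against rtTA and -0.95 without that library. The gene lay under the filter. With the filter removed limma gave adjusted p of 0.167 in K36M against rtTA, 0.772 in K9M against rtTA and 0.645 in K36M against K9M. With a filter on a mean of at least 1 RPKM, which the gene passed through its rtTA values, limma gave 0.0879, 0.657 and 0.481 in the same order. In rtTA replicate 3 the summed level of 12 mature neutrophil genes was 6580 RPKM. It was 1423 and 748 RPKM in rtTA replicates 1 and 2, 189 to 434 RPKM in K36M and 473 to 1126 RPKM in K9M. The part of these sums in the Prss34 values was not tested. K36M replicate 1, the library with the highest Mcpt8 value, held the lowest Prss34 value.

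Gzmb encodes granzyme B, which mouse mast cells share with cytotoxic lymphocytes. It stood at 0.0701, 0.345 and 0.0140 RPKM in K36M replicates 1 to 3 and at 0.376, 0.751 and 0.846 RPKM in K9M replicates 1 to 3. In rtTA it was listed at 0 in replicate 1, where 3 reads would be worth 0.126 RPKM, and stood at 1.30 and 0.905 RPKM in replicates 2 and 3. About 4, 18 and 1 reads lay behind the K36M values, 26, 30 and 19 behind the K9M values and 0, 63 and 32 behind the rtTA values. K36M lay under K9M in every library, while the rtTA group spanned both. Of 23 cytotoxic lymphocyte genes, 3 passed the filter: Nkg7 ran from 89.3 to 144 RPKM over the 9 libraries, Ctsw from 4.92 to 9.11 RPKM and Klrd1 from 0.418 to 4.30 RPKM. Of the others, Prf1, the perforin gene, did not exceed 0.763 RPKM, Cd3e 0.168 RPKM and Ncr1 0.457 RPKM. The summed level of the list was 111 to 153 RPKM in K36M, 132 to 143 RPKM in K9M and 99.2 to 106 RPKM in rtTA. Most of it was Nkg7, with means of 126 RPKM in K36M, 125 RPKM in K9M and 91.6 RPKM in rtTA. Mean Klrd1 was 0.853, 1.98 and 2.62 RPKM and mean Ctsw 6.19, 7.53 and 5.35 RPKM in the same order. The part of the list in the Gzmb values was not tested.

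Hdc encodes histidine decarboxylase, which makes histamine in mast cells and basophils and is also expressed by early myeloid cells of mouse marrow. It stood at 11.2, 4.56 and 12.5 RPKM in K36M replicates 1 to 3, at 1.63, 5.34 and 2.39 RPKM in K9M replicates 1 to 3, and at 2.49, 3.34 and 4.98 RPKM in rtTA replicates 1 to 3. K36M replicates 1 and 3 lay above every other library, whereas K36M replicate 2 lay among the rtTA values and under K9M replicate 2. The log2 fold change was 1.21 (SE 0.448, limma adjusted p = 0.195) in K36M against rtTA, -0.27 (SE 0.448, limma adjusted p = 0.920) in K9M against rtTA and 1.48 (SE 0.448, limma adjusted p = 0.121) in K36M against K9M. Without K36M replicate 2 the K36M against K9M difference was 1.91 and passed (limma adjusted p = 0.0465, in a range of 0.0465 to 0.346 over 19 alternatives).

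The genes whose pattern over the 9 libraries was most like that of Hdc were Lta4h, a leukotriene-forming enzyme (r = 0.986), Ms4a3, a marker of granulocyte and monocyte progenitors (r = 0.982), and Elane, neutrophil elastase (r = 0.979). Elane stood at 634, 218 and 898 RPKM in K36M replicates 1 to 3, 27.9, 220 and 63.3 RPKM in K9M replicates 1 to 3, and 84.7, 165 and 236 RPKM in rtTA replicates 1 to 3, the same order of high and low libraries within each mutant group as for Hdc. For Mcpt8 the most alike genes were Ppp2cb (r = 0.953), a phosphatase subunit, Lactb (r = 0.953) and Cotl1 (r = 0.935). For Cpa3 they were the phosphatase genes Ptpn9 (r = 0.977) and Phlpp1 (r = 0.965) and the gene Focad (r = 0.967), and for Ms4a2 they included Zfp146 (r = 0.959) and Siah2 (r = 0.916). These r are the highest among 12926 genes over 9 libraries that fall into 3 groups, and they describe likeness only.

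**Figure D3:**
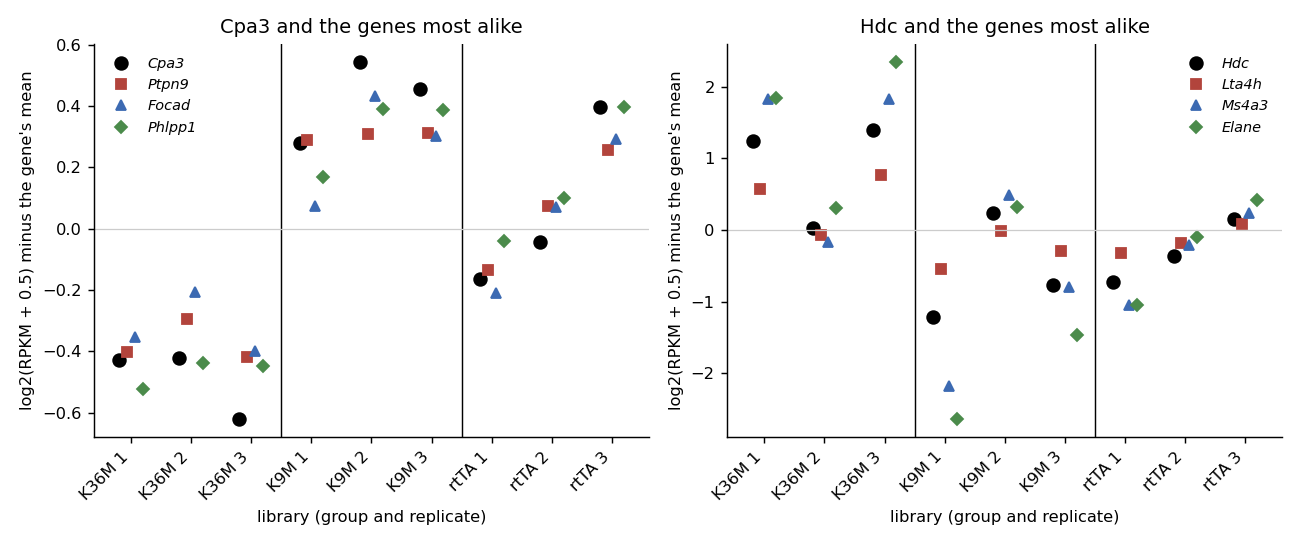
Log2(RPKM + 0.5) minus each gene's mean over the 9 libraries (vertical axis), by library, for Cpa3 (left) and Hdc (right) with their 3 most alike genes. Cpa3 is low in all 3 K36M libraries, while Hdc and its neighbours are high in K36M replicates 1 and 3 and not in replicate 2.

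Mitf encodes the factor that mast cells and melanocytes need. It stood at 0.526, 0.960 and 0.924 RPKM in K36M replicates 1 to 3, at 0.771, 0.657 and 0.980 RPKM in K9M replicates 1 to 3, and at 1.11, 0.638 and 1.24 RPKM in rtTA replicates 1 to 3. The groups overlapped, and the log2 differences were -0.19, -0.18 and -0.01 in K36M against rtTA, K9M against rtTA and K36M against K9M. All 10 melanocyte genes looked at were under the filter, with Tyrp1 and Dct listed at 0 in all 9 libraries.

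By mean level over the 9 libraries, per kilobase and so comparable between genes, the order was Fcer1g (43.2 RPKM), Cpa3 (33.3), Mcpt8 (15.0), Hdc (5.39), Prss34 (2.52), Ms4a2 (1.702), Mitf (0.867), Gzmb (0.511) and Fcer1a (0.441). Neighbours in this order had overlapping values over the 9 libraries, and the order differed between groups. Cpa3 stood above Fcer1g in K9M (means of 43.3 and 34.7 RPKM). Prss34 was the lowest of the 9 in K36M (0.131 RPKM) and stood under Ms4a2 in K9M (0.800 and 2.03 RPKM), but above Hdc in rtTA (6.63 and 3.61 RPKM), where replicate 3 carried its mean. Across libraries on the log2 scale, Cpa3 went with Ms4a2 (r = 0.77) and Gzmb (r = 0.70), Prss34 with Ms4a2 (r = 0.75) and Gzmb (r = 0.71), and Mcpt8 with Hdc (r = 0.74), while Cpa3 and Hdc had r = -0.58. Each r is over the same 9 libraries in 3 groups and is given without a test.

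**Figure D4:**
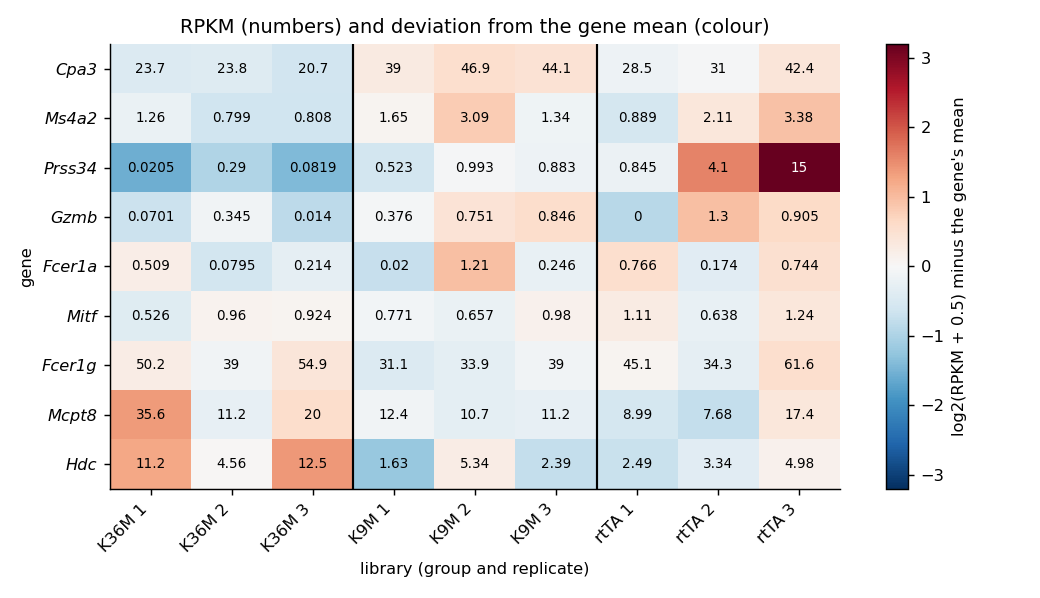
RPKM of each gene (numbers, rows) in each library (columns, K36M, K9M and rtTA), coloured by log2(RPKM + 0.5) minus the gene's mean. Cpa3, Ms4a2, Prss34 and Gzmb are below their means in the 3 K36M libraries, whereas Mcpt8 and Hdc are furthest above theirs in K36M replicates 1 and 3.

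Other genes of the lineages were read from 6 lists. Among 18 mast cell protease and granule genes, 9 were tested and 4 were at 0 in all libraries (Mcpt1, Mcpt9, Cma2 and Tpsg1). In K36M against K9M 1 of the 9 was called, Rab27a, a GTPase of granule release, higher at 39.0 ± 9.73 RPKM in K36M and 18.6 ± 1.36 RPKM in K9M (SD, n = 3 each; log2 fold change 1.02, limma adjusted p = 0.0308). Rab27a stood at 22.5 ± 3.73 RPKM in rtTA (SD, n = 3), and its rise of 0.76 in K36M against rtTA was not called (limma adjusted p = 0.087). Limma called 0 of 9 in K36M against rtTA and 0 of 9 in K9M against rtTA. Unadjusted p lay under 0.05 for 4 in K36M against rtTA, 0 in K9M against rtTA and 3 in K36M against K9M. As background for this and the following lists, such p were found for 19.1%, 7.11% and 18.8% of all tested genes. Calls were found for 1.50%, 0.116% and 2.52%. Median log2 fold changes of the list were 0.14 in K36M against rtTA, -0.18 in K9M against rtTA and 0.13 in K36M against K9M, beside 0.02, 0.0072 and 0.0079 over all tested genes. The transcripts that define mature connective tissue mast cells were near 0: Cma1 did not exceed 1.22 RPKM, Tpsb2 0.789 RPKM, Mcpt4 0.395 RPKM and Tpsab1 0.0394 RPKM.

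Among 25 basophil surface and cytokine genes, 17 were tested. Il18r1, a receptor chain for interleukin 18, rose in K36M to 9.21 ± 1.29 RPKM, against 2.64 ± 1.06 RPKM in K9M and 2.43 ± 0.555 RPKM in rtTA (SD, n = 3 each). Its log2 fold change was 1.74 (SE 0.268, limma adjusted p = 0.022) in K36M against rtTA and 1.68 (SE 0.268, limma adjusted p = 0.0207) in K36M against K9M. Crlf2, the receptor chain for TSLP, fell in K36M to 25.8 ± 0.824 RPKM, against 46.2 ± 3.54 RPKM in rtTA (SD, n = 3 each; -0.83, limma adjusted p = 0.048). Limma called 0 of 17 in K9M against rtTA. Unadjusted p lay under 0.05 for 10 of the 17 in K36M against rtTA, 4 in K9M against rtTA and 6 in K36M against K9M. Over all tested genes the shares were 19.1%, 7.11% and 18.8%. The list's median was -0.28 in K36M against rtTA, -0.23 in K9M against rtTA and -0.03 in K36M against K9M. Cd200r3, a defining surface gene of mouse basophils, did not exceed 0.197 RPKM in any library.

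Among 30 genes of receptor signalling, 28 were tested, and 2 fell in K36M in both comparisons. Fyn, a kinase of the receptor's proximal signal, fell to 8.52 ± 1.67 RPKM in K36M, against 17.2 ± 1.43 RPKM in K9M and 14.7 ± 1.51 RPKM in rtTA (SD, n = 3 each), a log2 fold change of -0.77 against rtTA and -0.98 against K9M (limma adjusted p = 0.0441 and 0.0187). Plcg1, the phospholipase that opens calcium release, fell to 8.401 ± 1.46 RPKM in K36M, against 16.1 ± 1.23 RPKM in K9M and 14.97 ± 2.30 RPKM in rtTA (SD, n = 3 each), at -0.80 against rtTA and -0.91 against K9M (limma adjusted p = 0.0415 and 0.0219). The list's median was positive in both, at 0.12 and 0.22. In K9M against rtTA limma called 0 of 28, with a median of -0.09. Unadjusted p lay under 0.05 for 7 of the 28 in K36M against rtTA, 1 in K9M against rtTA and 12 in K36M against K9M. Over all tested genes the shares were 19.1%, 7.11% and 18.8%.

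Among 25 transcription factors of the lineages, all tested, limma called 0 in K36M against rtTA, 0 in K9M against rtTA and 1 in K36M against K9M, with 5, 3 and 6 at an unadjusted p under 0.05. The call was Cebpe, a factor of granulocyte maturation, at 29.3 ± 11.9 RPKM in K36M and 2.60 ± 1.05 RPKM in K9M (SD, n = 3 each; 3.22, limma adjusted p = 0.0148). In rtTA Cebpe stood at 6.18 ± 3.76 RPKM (SD, n = 3). Its log2 fold change of 2.20 in K36M against rtTA narrowly missed the threshold (limma adjusted p = 0.0503). The medians of the factor list were -0.07 in K36M against rtTA, -0.15 in K9M against rtTA and 0.16 in K36M against K9M. In the histamine and lipid mediator list, 11 of 16 genes were tested and 1 was called, Slc22a3, a transporter that carries histamine. It fell in K36M to 29.7 ± 5.34 RPKM, against 47.9 ± 0.895 RPKM in K9M and 47.3 ± 2.47 RPKM in rtTA (SD, n = 3 each), at -0.67 against rtTA and -0.70 against K9M (limma adjusted p = 0.0414 and 0.0299). The medians of that list were -0.11 in K36M against rtTA, -0.0033 in K9M against rtTA and -0.12 in K36M against K9M. In K9M against rtTA limma called 0 of 11. Unadjusted p lay under 0.05 for 4, 4 and 3 of the 11 in the same order. In the stem cell factor receptor list, limma called 0 of 7 tested genes in each comparison, with 2, 0 and 1 at an unadjusted p under 0.05. In K36M against rtTA Kit and Socs6 (-0.28, limma adjusted p = 0.253) had the smallest p. Beside the counts of these 3 lists, the shares of all tested genes with an unadjusted p under 0.05 were 19.1%, 7.11% and 18.8%.

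Over these 6 lists limma made 5 calls in K36M against rtTA, 0 in K9M against rtTA and 6 in K36M against K9M. The called shares of all tested genes were 1.50%, 0.116% and 2.52%. Leaving out K36M replicate 1 ended all 11 calls, as did leaving out K36M replicate 3, while leaving out K36M replicate 2 ended 1, that of Crlf2. The numbers lost were 9, 7 and 9 without K9M replicates 1, 2 and 3, and 3, 5 and 5 without rtTA replicates 1, 2 and 3. The highest adjusted p over the alternatives ranged by gene from 0.0728 for Cebpe in K36M against K9M to 0.166 for Plcg1 in K36M against rtTA.

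**Figure D5:**
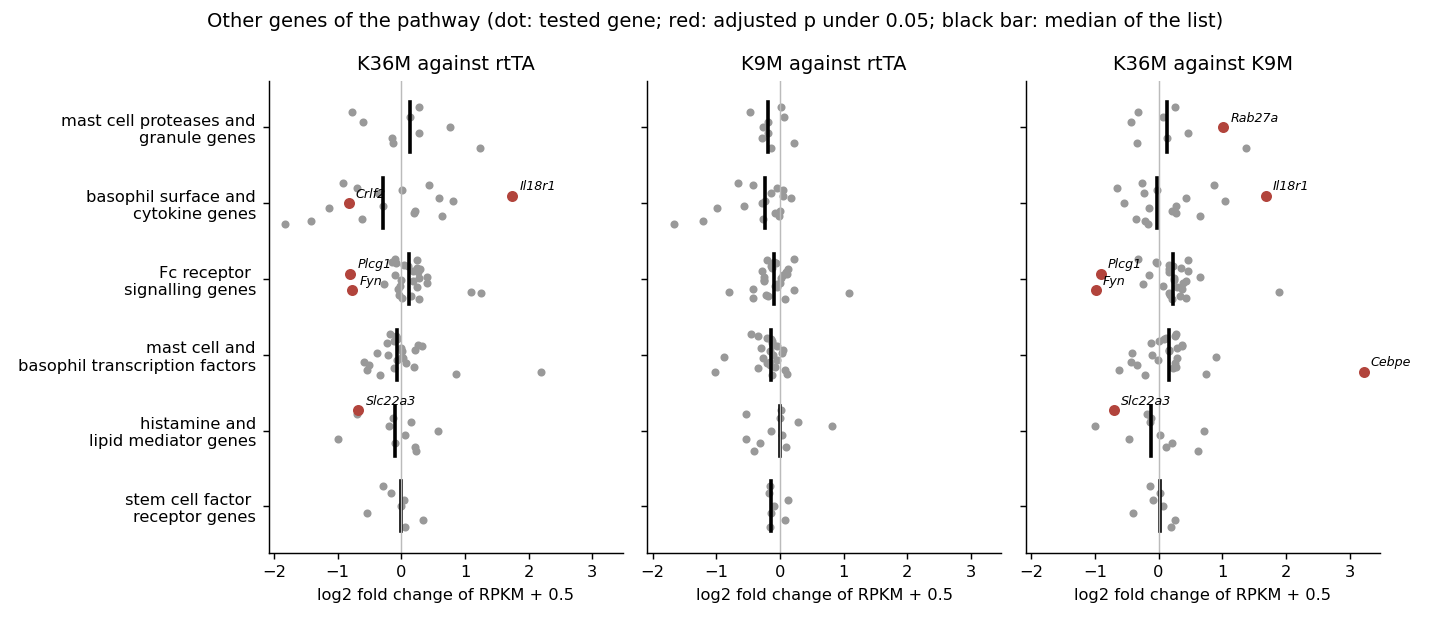
Log2 fold change of RPKM + 0.5 (horizontal axis) of every tested gene in the 6 lists (rows) for K36M against rtTA, K9M against rtTA and K36M against K9M, with called genes in red and the list median as a black bar. K36M against rtTA holds 5 red points, K36M against K9M holds 6 and K9M against rtTA holds none.

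The libraries held an estimated 15860000 to 50310000 reads each. H3f3a, the gene of the H3.3 transgene's protein, was highest in K36M (460 ± 44.2 RPKM), lower in K9M (300 ± 17.5 RPKM) and lowest in rtTA (224 ± 32.3 RPKM; SD, n = 3 each), and whether transgene reads were counted there was not tested. H3f3b, which encodes the same protein, ran the other way, at 204 ± 22.8 RPKM in K36M, 212 ± 12.8 RPKM in K9M and 236 ± 33.1 RPKM in rtTA (SD, n = 3 each). Of the cell type lists, the sums over 12 mature neutrophil, 15 B lineage and 11 eosinophil genes ran from 189 to 434, 222 to 272 and 16.3 to 30.1 RPKM in K36M. They ran from 473 to 1126, 195 to 270 and 5.67 to 8.80 RPKM in K9M, and from 748 to 6580, 302 to 611 and 7.41 to 24.7 RPKM in rtTA. Most of the eosinophil sum in K36M was Siglec5, at 19.1, 11.4 and 24.4 RPKM in replicates 1 to 3. Prg2, the other tested eosinophil gene, stood at 2.81 ± 0.174 RPKM in K36M, 1.215 ± 0.717 RPKM in K9M and 4.997 ± 6.51 RPKM in rtTA (SD, n = 3 each). Erythroid sums (14 genes) were 444 to 730 RPKM in K36M, 495 to 654 RPKM in K9M and 435 to 479 RPKM in rtTA, megakaryocyte sums (12 genes) 149 to 220, 206 to 258 and 227 to 267 RPKM, and sort and stem cell sums (16 genes) 1079 to 1149, 1141 to 1294 and 1096 to 1407 RPKM in the same order. Melanocyte sums were 0.828 to 1.17, 0.913 to 1.35 and 0.940 to 1.25 RPKM. In K36M against rtTA limma called 1 of 2 tested eosinophil genes (Siglec5, higher), 2 of 12 neutrophil genes (Chi3l3 and Ltf, lower), 1 of 16 monocyte genes (Cd68, lower) and 1 of 12 erythroid genes (Hbb-bt, higher). Cd68 went against most of its list, in which 10 monocyte genes had a positive and 6 a negative log2 fold change there (median 0.31). In K36M against K9M limma called Siglec5, Hbb-bt, Cx3cr1, Tyrobp and Igha, each higher, and in K9M against rtTA Igha, lower. Over all tested genes the called shares were 1.50% in K36M against rtTA, 0.116% in K9M against rtTA and 2.52% in K36M against K9M. Leaving out K36M replicates 1, 2 and 3 in turn ended 9, 3 and 11 of these 11 marker calls, and 10 were lost with no filter. The numbers lost were 8, 8 and 7 without K9M replicates 1, 2 and 3, and 4, 4 and 5 without rtTA replicates 1, 2 and 3. The Igha call in K9M against rtTA was also lost with a pseudocount of 1, quantile normalization, median centring and no mean-variance trend. Limma called none of the 3 cytotoxic, 11 megakaryocyte and 16 sort and stem cell genes tested. Of these, 2, 2 and 11 had an unadjusted p under 0.05 in K36M against rtTA. The numbers were 1, 0 and 1 in K9M against rtTA and 1, 2 and 9 in K36M against K9M. Over these 3 comparisons, in that order, such p were found for 10, 2 and 4 of 12 neutrophil genes. For B lineage genes they were 4, 10 and 6 of 12, and for monocyte genes 4, 4 and 9 of 16. For erythroid genes they were 3, 3 and 4 of 12, and for eosinophil genes 1, 0 and 1 of 2. Over all tested genes the shares were 19.1%, 7.11% and 18.8%. The parts these cell types had in the values above were not tested.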

How the data were processed

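The authors deposited RPKM values, reads scaled to gene length and library size, for 37882 genes in 9 libraries. The submitters' processing notes list CASAVA 1.7, STAR and mm10. Gene lengths, counting tool and multi-mapped reads are not described. The molecule label is polyA RNA. In blastn searches of GENCODE M21 transcripts, other genes reached at most 79.9% identity to a member over at least 100 bases. Printed gene coordinates are those of GENCODE M21. RPKM hides depth, so reads per library were read from steps of the lowest values with GENCODE M21 exon lengths. Of the values estimated at no more than 20 reads, 50.6% to 52.2% were within 0.02 of a whole number (chance gives 4%), so read numbers are approximate. Floors cover counting error only.

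Genes with at least 1 RPKM in at least 3 libraries, 12926 in all, were fitted as log2(RPKM + 0.5) with limma 3.58.1 in R 4.3.3 to 3 group means over 9 libraries (6 residual and 3.14 prior degrees of freedom, mean-variance trend). Tests were two-sided, with Benjamini-Hochberg adjustment over all tested genes. The fit was tested on simulated data. The 9 genes, the gene lists and the rule for named genes were chosen with earlier results of these data known. Named were the 9 genes, up to 4 called genes per list and comparison by smallest p, or 2 uncalled with the smallest p, and the 3 genes most alike by Pearson r over the 9 libraries, with model and clone numbers left out. Of these alike genes, 1 is not reported here. Each replicate is a separate mouse, per the labels' design text. Same-number libraries of K36M and rtTA deviated together from their group means (r = 0.414, 0.369 and 0.377). For K9M and rtTA the values were 0.162, 0.0599 and 0.0174, and for K36M and K9M 0.0741, -0.171 and 0.053. The main fit held no pairing, so its p in K36M against rtTA are unpaired. The replicate number entered only as a block in an alternative fit over all 9 libraries, from the data and not from the labels. Alternatives were other pseudocounts, filters and scalings, a replicate block, only the 2 groups compared, no trend, library weights and each library left out.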

Additional observations from a re-analysis of the deposited data

How the results depend on the processing

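No fold change of the 9 genes that was called in any of the fits changed sign, and 422 of 432 values under alternatives stayed on the same side of the threshold and within the spread between replicates. The 194 genes called in K36M against rtTA became 76 with no filter, 301 with the replicate block and 25 with only the 2 groups compared, and ranged from 10 to 402 with single libraries left out. The 15 in K9M against rtTA became 4 with no filter, 8 with quantile normalization, 8 with median centring and 62 with library weights, and ranged from 6 to 36. The 326 in K36M against K9M became 118 with no filter, 595 with the replicate block and 589 with library weights, and ranged from 15 to 509. Of the 9 genes, the 1 called in K36M against K9M became 0 with no filter and ranged from 0 to 2 with single libraries left out, and in the other comparisons it stayed at 0. In the 6 lists, the 5 calls in K36M against rtTA became 0 with no filter and 2 with only the 2 groups compared (0 to 12 with single libraries left out). The 0 in K9M against rtTA became 2 with library weights (0 to 3), and the 6 in K36M against K9M became 2 with no filter and 12 with the replicate block (0 to 11). The replicate block changed no call of the 9 genes. No filter adds low genes to the number adjusted over, and the other causes were not tested. Gzmb in K36M against K9M was -0.86 and became -1.82 with a pseudocount of 0.1. Prss34 there was -1.05 and became -2.10 with 0.1 and -0.67 with 1. Depth limits Fcer1a and Prss34, whose lowest values rest on about 1 read, and Gzmb, listed at 0 in rtTA replicate 1.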

Other observations

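Mcpt8 and Gzmb lie in a serine protease cluster on chromosome 14, with 174 kb between them (Mcpt8 at 56082166 to 56085273 and Gzmb at 56258838 to 56262260, mm10, both on the minus strand). Only the stretch from Mcpt8 to Gzmb was read here. Ctsg, the cathepsin G gene next to Mcpt8, stood at 691, 245 and 717 RPKM in K36M replicates 1 to 3, at 158, 273 and 162 RPKM in K9M replicates 1 to 3, and at 222, 157 and 266 RPKM in rtTA replicates 1 to 3. Its log2 fold change of 1.23 in K36M against rtTA did not pass (limma adjusted p = 0.157). The granzyme genes between them, Gzmd, Gzmg, Gzmn and Gzmf, were at 0 in all 9 libraries, Gzmc did not exceed 0.190 RPKM and Gzme did not exceed 0.108 RPKM. Within this stretch, Mcpt8 and Ctsg were thus higher in K36M replicates 1 and 3 than in any other library, and Gzmb was not.

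K9M replicate 2 held the highest values of Cma1 (1.22 RPKM), Tpsb2 (0.789 RPKM) and Mcpt4 (0.395 RPKM), which are proteases of connective tissue mast cells, and also the highest Cpa3 and Fcer1a values of the 9 libraries. Tpsab1, another such protease, was listed at 0 in that library and was above 0 only in K9M replicate 3 (0.0394 RPKM). Kit (81.1 RPKM), Gata2 (40.7 RPKM) and Mcpt8 (10.7 RPKM) had their lowest K9M values in K9M replicate 2. Cma1 was listed at 0 in K9M replicate 1 and stood at 0.883 RPKM in K9M replicate 3, and in K36M it did not exceed 0.167 RPKM.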
